A study of Mus musculus with 8 samples.

Results

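The extracellular matrix of the atrial wall was followed through 47 genes that encode its non-collagen proteins, the enzymes that crosslink or cut it, their inhibitors, and markers of the fibroblasts that make most of it. The 47 genes were chosen by symbol from the 54532 genes of a bulk RNA sequencing count table, all 47 were found, and 46 passed the filter on low counts. The libraries came from right and left atria, labelled as mixed cells, of mice with the genotype Chd4flox/flox. On postnatal day 2 the mice received either AAV9:Nppa-Cre (KO, 4 libraries) or AAV9:Nppa-EGFP (control, 4 libraries). Floxed Chd4 alleles were thus common to both groups, while Cre was given to KO alone and EGFP to control alone, so effects of these proteins cannot be told apart from loss of Chd4. The Nppa promoter is active in atrial cardiomyocytes, so the vectors addressed muscle cells, whereas RNA was taken from the whole tissue. The mice's age at collection, their sex and their number per library are not stated in the labels used here.

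The matrix of the heart is a mesh of collagen and elastic fibres decorated with glycoproteins and proteoglycans. Fibroblasts secrete most of its components, lysyl oxidases crosslink the fibres, metalloproteases of the MMP and ADAMTS families cut them, and TIMP proteins block the metalloproteases. Matricellular proteins such as periostin and tenascin C have little structural role, bind cells and growth factors, and are known to rise where cardiac tissue is remodelled. In the atrium, a thicker matrix between muscle bundles is known as a substrate of atrial fibrillation.

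Total counts were 34002292 to 38228982 in KO and 39804625 to 40588007 in control. The targeted gene Chd4, a remodeller of the NuRD complex, was at 169 to 200 CPM (counts scaled to library size with TMM factors) in KO and at 278 to 308 CPM in control, a difference of -0.66 on the log2 scale (SE 0.06, adjusted p = 1.86e-05 in edgeR's quasi-likelihood test with Benjamini-Hochberg adjustment). The Y-linked gene Ddx3y was at 0.706 to 0.858 CPM in KO 2, control 1 and control 2 and at 105 to 124 CPM in the other 5 libraries. The second principal component of the 500 most variable genes set KO 2 and control 2 apart. Library name prefixes also differed: KO 1 was under 15386, KO 2 to KO 4 under 15394, controls 1 and 2 under 15390 and controls 3 and 4 under 16301. No prefix was shared by KO and control, so a difference tied to the prefix cannot be told apart from that between the groups. KO 4 alone held markers of fat cells: Adipoq, the adiponectin gene, was at 15.8 CPM there and at 0.0545 to 0.766 CPM in the other 7 libraries, and Cfd at 39.3 against 0.252 to 1.81 CPM.

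Promoter sequence was available from RefSeq (build GRCm38.p6) for 29 of the 47 genes, in 36 windows. The 250 bases before the RefSeq start are printed for 5 of them that carry the contrast described below. These are a protease gene that rose and one that fell (Mmp3, chr9:7445572-7445821, plus strand, and Mmp15, chr8:95352046-95352295, plus strand), an inhibitor gene that rose and one that fell (Timp1, chrX:20869916-20870165, plus strand, and Timp4, chr6:115252206-115252455, minus strand), and Thbs4 (chr13:92794819-92795068, minus strand). Each is written 5′ to 3′ along its gene, and capitals mark a match to 1 of 5 motifs searched on both strands.
Mmp3: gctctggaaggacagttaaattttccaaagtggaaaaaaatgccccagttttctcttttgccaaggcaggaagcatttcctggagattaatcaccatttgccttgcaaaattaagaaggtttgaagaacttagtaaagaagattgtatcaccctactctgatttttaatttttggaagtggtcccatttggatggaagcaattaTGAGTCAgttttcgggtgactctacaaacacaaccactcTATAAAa
Mmp15: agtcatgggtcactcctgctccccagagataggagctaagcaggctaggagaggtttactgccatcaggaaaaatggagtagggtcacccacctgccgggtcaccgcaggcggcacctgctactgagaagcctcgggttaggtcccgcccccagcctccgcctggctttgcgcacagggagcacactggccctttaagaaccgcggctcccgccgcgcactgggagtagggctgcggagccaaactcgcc
Timp1: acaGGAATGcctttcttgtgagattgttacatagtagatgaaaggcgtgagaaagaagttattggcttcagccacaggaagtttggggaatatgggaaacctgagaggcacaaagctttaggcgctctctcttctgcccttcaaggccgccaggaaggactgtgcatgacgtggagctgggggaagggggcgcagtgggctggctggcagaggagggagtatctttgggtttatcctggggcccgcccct
Timp4: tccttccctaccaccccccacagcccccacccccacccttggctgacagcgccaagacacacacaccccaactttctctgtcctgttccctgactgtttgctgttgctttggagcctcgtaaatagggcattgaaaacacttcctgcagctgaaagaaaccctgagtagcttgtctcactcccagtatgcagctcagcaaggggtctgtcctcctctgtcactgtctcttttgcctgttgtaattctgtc
Thbs4: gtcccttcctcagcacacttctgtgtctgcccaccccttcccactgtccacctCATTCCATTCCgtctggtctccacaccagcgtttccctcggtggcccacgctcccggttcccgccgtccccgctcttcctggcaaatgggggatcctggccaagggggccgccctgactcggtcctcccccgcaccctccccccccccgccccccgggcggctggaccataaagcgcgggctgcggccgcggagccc

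The letters searched were AGGTGT for T-box factors and TGANTCA for AP-1. For GATA factors they were AGATAA, and for TEAD factors GGAATG. The TATA box was searched as TATAAA. Mmp3 held an AP-1 match from 46 bases before its start and a TATA match from 7 bases before it. Thbs4 held a pair of TEAD matches that overlap by their last and first base, Timp1 held a TEAD match 247 bases before its start, and no letters of the 5 motifs stood in the Timp4 and Mmp15 windows. Among the 36 windows of these genes, T-box letters stood in 8.33%, AP-1 in 2.78%, GATA in 2.78%, TEAD in 8.33% and TATA in 22.2%. The shares among all 32851 windows of this length were 11.8%, 6.75%, 9.99%, 12.6% and 12.4% in the same order. Some genes had more than 1 window, so the 36 are not separate genes. A match describes letters only. RefSeq and GENCODE place the start of Mmp15 differently: GENCODE begins the gene at 95352268, so the end of that window lies inside its gene model.

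In the KO atria 20 of the 46 tested genes rose and 3 fell, while 23 were not called at an adjusted p under 0.05. This is 43.5% higher and 6.52% lower, against 14.8% of all 18033 tested genes higher and 13.1% lower. Without TMM factors the calls over all genes split into 3696 higher and 1580 lower in place of 2677 and 2355, and those of the 46 genes into 23 and 2. The median log2 fold change of the 46 genes was 0.26, against 0.01 for all tested genes, and 37 of 46 values were above 0. Every KO library lay above every control library in 17 genes (37%, against 15.3% of all tested genes) and below in 4 (8.7%, against 13.9%). Called rises of at least 1.5-fold numbered 8 of the 46 genes, against 1315 of all 18033 tested genes. Called falls of that size numbered 2, against 785. The median size of the log2 fold change, regardless of sign, was 0.32 for the 46 genes and 0.23 for all tested genes. Leaving out any 1 library kept 17 of the 20 rises and 2 of the 3 falls called.

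Markers of the cell types in the tissue were followed beside these genes, with 8 in each list. Among all tested genes, 14.8% were called higher and 13.1% lower. Of 8 cardiomyocyte markers, 7 fell and 1 rose, and their summed level was 40092 to 48622 CPM in KO and 60880 to 68578 CPM in control. Of 8 fibroblast markers outside the 47 genes, 3 rose and 1 fell (Pi16, 1.68-fold), with sums of 5363 to 7096 and 4469 to 5255 CPM. Their median difference from the control mean on the log2 scale was 0.05, 0.09, 0.18 and 0.51 in KO 1 to 4. In controls 1 to 4 it was 0.04, -0.16, 0.02 and 0.07. Col1a1, Col1a2 and Col3a1 of this list are also counted among the collagen chains below, and Ddr2 among the matrix receptors. Summed endothelial markers (4 rose, 1 fell of 8) ran from 1434 to 1602 and from 1294 to 1399 CPM, epicardial markers (6 of 8 rose) from 732 to 893 and from 542 to 716 CPM, and macrophage markers (4 of 8 rose) from 312 to 418 and from 278 to 328 CPM. Glial sums were 132 to 139 and 93.6 to 111 CPM, and 1 of 8 glial markers rose (12.5%, below the share of all tested genes). Lymphocyte sums (3 of 8 rose) were 39.1 to 64.1 and 19.8 to 34.9 CPM. Mural sums were 451 to 597 and 519 to 814 CPM, and the mural markers went both ways (3 rose, 2 fell of 8). No marker in these lists was at 0 in all 8 libraries. The part of these shifts in the results below was not tested, and in whole tissue a change in the number of cells of a type and a change in RNA per cell cannot be told apart.

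**Figure D1:**
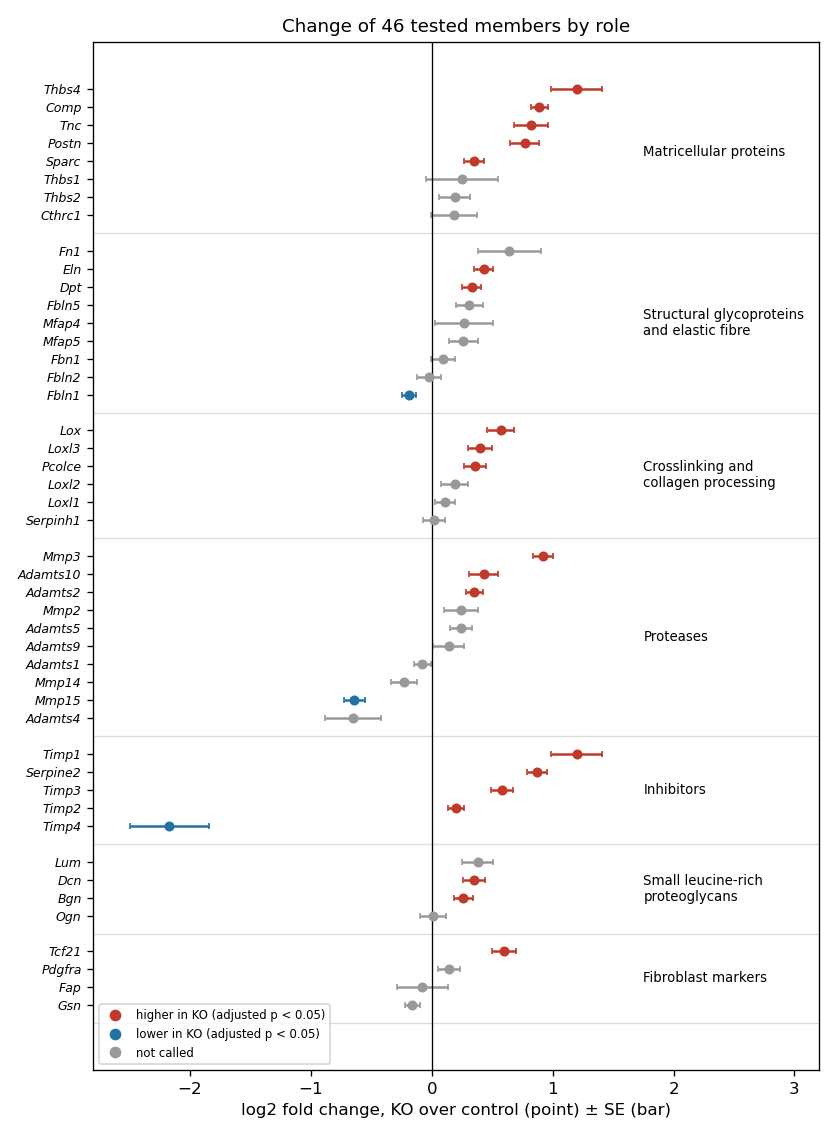
Log2 fold change of KO over control for the 46 tested genes, grouped by role, with the standard error as a bar; red and blue points are called higher and lower at an edgeR adjusted p under 0.05, grey points are not called. Timp4 stands at -2.17, below all other genes, while Thbs4 and Timp1 stand highest at 1.20.

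Levels between genes were compared per length, as CPM per kilobase of exon. In control atria they ran from 0.183 for Spp1, the osteopontin gene, to 1303 for Gsn, which encodes the actin-severing protein gelsolin, with a median of 18.8. Sparc, a collagen-binding glycoprotein, stood at 405, Serpinh1, the collagen chaperone, at 264 and Dcn, the proteoglycan decorin, at 207. Spp1 had 2 to 8 counts in KO and 5 to 18 counts in control and was the 1 gene that the filter on low counts removed. In the alternatives that kept Spp1 its log2 fold change was -1.39 to -0.80, and it was not called (adjusted p = 0.0667 to 0.3). The other matricellular genes among the 47 had log2 fold changes above 0 in the comparison of all 8 libraries. All 47 genes together took 1.81% ± 0.137 (SD, n = 4) of the counts in KO and 1.5% ± 0.0167 (SD, n = 4) in control, with 1.63% in KO 1 and 1.79% to 1.95% in the other KO libraries.

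**Figure D2:**
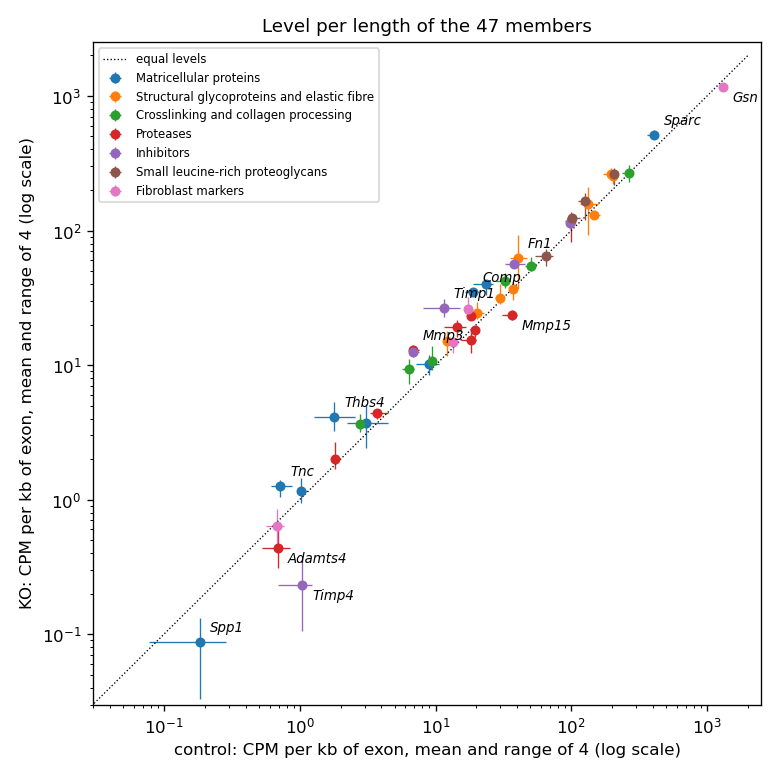
Level per length of the 47 genes in control (horizontal) and KO (vertical), in CPM per kilobase of exon on log axes; points are means of 4 libraries, bars run from the lowest to the highest library, and the dotted line marks equal levels. Timp4 and Mmp15 lie below the line and Thbs4, Timp1 and Comp above it, while Gsn is the highest gene in both groups.

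The matricellular genes chosen for this role moved in 1 direction where they moved. Of 8 tested, 5 rose, and edgeR called 0 lower and left 3 uncalled, with a median log2 fold change of 0.56. Ccn4, a matricellular gene outside this role, fell and stands in the list of further matrix genes below. Among the 5 that rose, Comp, the pentameric thrombospondin known from cartilage and tendon, was at 107, 99.9, 101 and 105 CPM in KO 1 to 4. In controls 1 to 4 it was at 49.2, 52.5, 59.1 and 61.7 CPM. The KO values spread over less than 8 CPM and lay far above all controls, with means of 103 ± 3.28 and 55.6 ± 5.76 CPM (SD, n = 4) and a 1.85-fold rise (log2 fold change 0.89, SE 0.07, adjusted p = 5.06e-06). Thbs4, a thrombospondin of heart, tendon and nerve, was at 17.4, 10.7, 13.6 and 12.3 CPM in KO and at 4.16, 5.34, 8.45 and 5.60 CPM in control. It rose 2.29-fold (log2 fold change 1.20, SE 0.21, adjusted p = 0.00228), with the lowest KO library still above control 3, the highest control. Thbs1 (14.8 to 31.4 CPM in KO, 13.4 to 27.1 in control, adjusted p = 0.579) and Thbs2 (59.1 to 82.6 and 50.2 to 74.1, adjusted p = 0.286, called higher with a Y-linked covariate at 0.0332) overlapped between the groups. In CPM per kilobase, Comp at 18.8 and Thbs2 at 8.90 led the thrombospondins in control, ahead of Thbs1 at 3.09 (2.21 to 4.46 over the libraries) and Thbs4 at 1.79 (1.27 to 2.57), whose libraries overlapped. In KO, Thbs4 at 4.11 (3.26 to 5.30) and Thbs1 at 3.68 (2.43 to 5.17) overlapped too.

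Postn, which encodes periostin, a protein of activated fibroblasts and valves, was at 286, 371, 362 and 371 CPM in KO and at 232, 194, 222 and 165 CPM in control. It rose 1.71-fold (log2 fold change 0.77, SE 0.12, adjusted p = 0.000648), and KO 1 was the lowest KO library. Tnc, the tenascin C gene, was at 8.17, 10.7, 9.72 and 10.8 CPM in KO and at 6.87, 4.77, 5.41 and 5.25 CPM in control. Again KO 1 came closest to the controls, and the rise was 1.77-fold (log2 fold change 0.82, SE 0.14, adjusted p = 0.000942). Sparc was at 1809, 1980, 1883 and 2132 CPM in KO and at 1545, 1373, 1641 and 1580 CPM in control. Its 1.27-fold rise was small beside those of Comp and Thbs4 and did not overlap between groups (log2 fold change 0.35, SE 0.08, adjusted p = 0.00497), but it was not called against controls 3 and 4 alone (adjusted p = 0.0814). Cthrc1, a secreted protein of injured vessels and scars, was low and overlapped, at 1.5 to 2.33 CPM in KO and 1.53 to 1.79 CPM in control (adjusted p = 0.532).

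**Figure D3:**
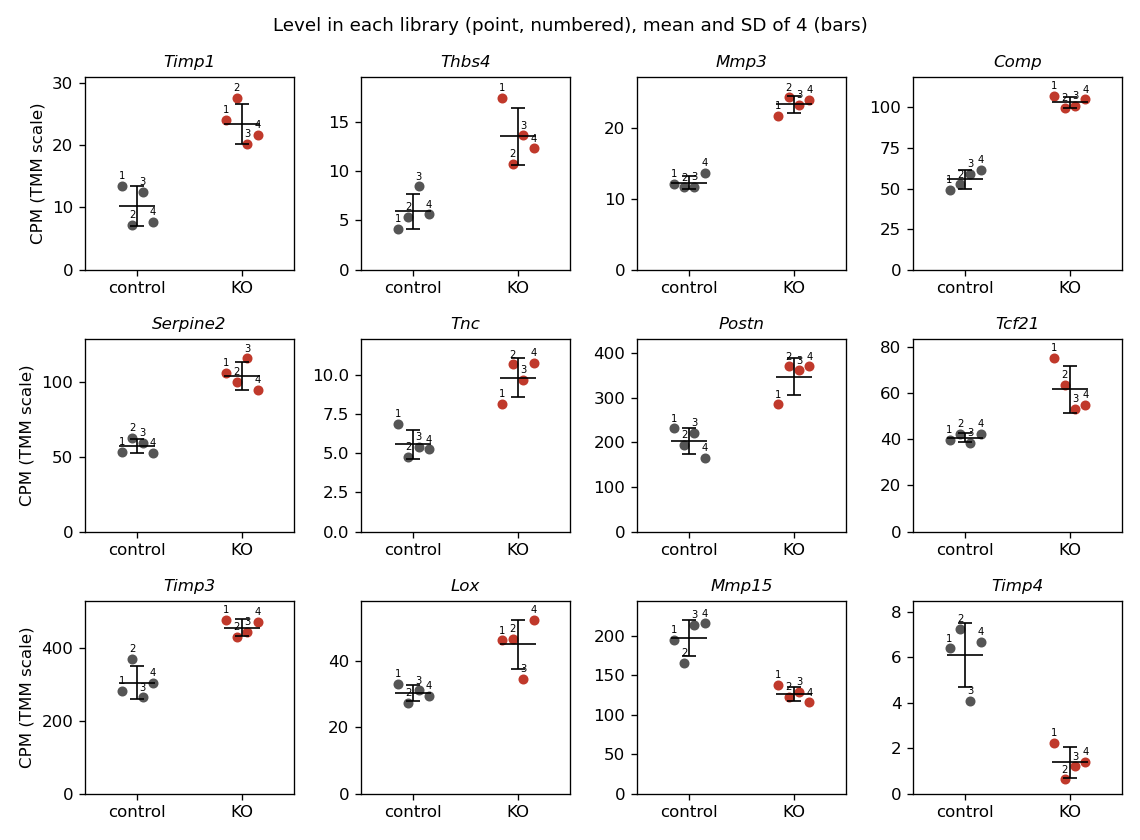
Level in CPM of 12 called genes in each library, with the library number above each point and bars for the mean and SD of 4 libraries; each axis starts at 0. The first 10 panels show rises and the last 2, Mmp15 and Timp4, show falls, and in each panel the groups do not overlap.

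Of 9 tested genes of structural glycoproteins and the elastic fibre, 2 rose (22.2%, against 14.8% of all tested genes) and 1 fell (11.1%, against 13.1%). The remaining 6 were not called, and the median log2 fold change of the 9 was 0.27. Eln, the elastin gene, was at 1950, 2212, 2079 and 2343 CPM in KO and at 1619, 1378, 1722 and 1640 CPM in control. Every KO library was above every control, a 1.35-fold rise (log2 fold change 0.43, SE 0.08, adjusted p = 0.00233). Dpt, which encodes dermatopontin, a small protein that binds decorin, was at 380, 471, 455 and 457 CPM in KO and at 372, 325, 366 and 337 CPM in control. KO 1 and control 1 lay close together, and the rise was 1.26-fold (log2 fold change 0.33, SE 0.08, adjusted p = 0.00747, not called against controls 1 and 2 alone at 0.0636, controls 3 and 4 alone at 0.0507, or without KO 2 and control 2 together at 0.0516). Fbln1, the fibulin 1 gene, was at 559, 572, 573 and 564 CPM in KO and at 623, 612, 648 and 709 CPM in control. Its 1.14-fold fall (log2 fold change -0.19, SE 0.06, adjusted p = 0.0335) was not called without KO 2, KO 3, KO 4, control 3 or control 4 (0.0585 to 0.108), without KO 2 and control 2 together (0.0544), without TMM factors (0.183), with the replicate block (0.0543) or against controls 1 and 2 alone (0.187).

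The remaining elastic fibre genes were not called in the comparison of all 8 libraries. Eln and Fbn1 share 267 and 2442 exon bases with Gm30003 and Gm9913 on the other strand. Fbn1, the fibrillin 1 gene that forms the microfibril core, was at 345 to 481 CPM in KO and 332 to 376 CPM in control (adjusted p = 0.552). Fbln2 was at 193 to 274 and 224 to 253 CPM (adjusted p = 0.898), and Fbln5, which guides elastin assembly, at 81.1 to 123 and 80.2 to 86.6 CPM (adjusted p = 0.0502). Fbln5 was called higher by DESeq2 (0.0308) and limma-voom with quality weights (0.0135), and in edgeR with upper-quartile factors (0.0494), without TMM factors (0.0258), with a filter of 1 CPM in 4 libraries (0.0469), with the replicate block (0.0347) and without KO 1 (0.00155). The microfibril-associated genes Mfap4 and Mfap5 were at 179 to 402 and 78.8 to 106 CPM in KO and at 220 to 303 and 59.3 to 81.3 CPM in control (adjusted p = 0.447 and 0.13). Fn1, the fibronectin gene, was singled out after its values were seen: it was at 431, 726, 696 and 1090 CPM in KO and at 547, 473, 457 and 411 CPM in control. KO 2, KO 3 and KO 4 exceeded every control and KO 1 did not, so that the 1.56-fold difference of the means was not called (adjusted p = 0.109), and without KO 1 it was called (log2 fold change 0.82, adjusted p = 0.01).

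Among 6 genes of crosslinking and collagen processing, 3 rose (50%, against 14.8% of all tested genes). EdgeR called 0 lower (against 13.1% of all tested genes) and left 3 uncalled, and the median log2 fold change of the 6 was 0.27. Lox, the lysyl oxidase gene, was at 46.3, 46.7, 34.6 and 52.5 CPM in KO and at 33.1, 27.3, 31.2 and 29.6 CPM in control. KO 3 lay just above control 1, and the rise was 1.49-fold (log2 fold change 0.57, SE 0.11, adjusted p = 0.00347). Loxl3 was at 14.7, 17.3, 15.6 and 19.9 CPM in KO and at 12.4, 13.1, 12.3 and 13.6 CPM in control, a 1.32-fold rise without overlap (adjusted p = 0.0117). Exons of Loxl3 overlap Htra2 on the other strand over 535 bases, and without a stated strand setting reads there cannot be told apart. The call was not made against controls 1 and 2 alone (0.0664) or controls 3 and 4 alone (0.0818). Pcolce, which encodes an enhancer of the enzyme that trims procollagen, was at 186, 153, 144 and 158 CPM in KO and at 127, 106, 135 and 131 CPM in control. It rose 1.28-fold (adjusted p = 0.0122, not called against controls 3 and 4 alone at 0.11), and 112 bases of its exons overlap Fbxo24 on the same strand.

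The more abundant family members did not pass the test. Loxl1, which crosslinks elastin, was the leading lysyl oxidase gene per length in control at 50.9, ahead of Loxl2 at 9.46, Lox at 6.34 and Loxl3 at 2.79, and their ranges over the libraries did not overlap. Loxl1 was at 166 to 210 CPM in KO and 151 to 182 CPM in control (adjusted p = 0.374), and Loxl2 at 49.7 to 74.3 and 49.7 to 54.6 CPM (adjusted p = 0.236). Serpinh1 was at 747, 560, 645 and 665 CPM in KO and at 683, 580, 672 and 643 CPM in control, with full overlap (adjusted p = 0.883).

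Of 10 tested protease genes, 3 rose (30%, against 14.8% of all tested genes), 1 fell (10%, against 13.1%) and 6 were not called, with a median log2 fold change of 0.19. Mmp3, stromelysin 1, which cuts proteoglycans and fibronectin, was at 21.7, 24.3, 23.3 and 24.0 CPM in KO and at 12.1, 11.6, 11.7 and 13.7 CPM in control. Both groups were tight and apart, and the gene rose 1.90-fold (log2 fold change 0.92, SE 0.08, adjusted p = 7.74e-06). Mmp15, a membrane-bound metalloprotease, was at 138, 123, 129 and 116 CPM in KO and at 195, 166, 214 and 216 CPM in control. It fell 1.56-fold (log2 fold change -0.64, SE 0.09, adjusted p = 0.000198), with every KO library below control 2, the lowest control. The gelatinase gene Mmp2, the most abundant protease gene per length, was at 278, 393, 464 and 451 CPM in KO and at 302, 340, 361 and 338 CPM in control (adjusted p = 0.24). Here KO 1 was the lowest of all 8 libraries and the other KO libraries were the highest, and without KO 1 Mmp2 was called higher (log2 fold change 0.37, adjusted p = 0.00307). Mmp14, the membrane-bound activator of MMP2, was at 73.6 to 104 CPM in KO and 92.6 to 117 CPM in control (adjusted p = 0.15).

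Of the ADAMTS genes, Adamts2, the protease that removes the amino-terminal end of procollagen, was at 209, 218, 209 and 236 CPM in KO and at 162, 161, 183 and 180 CPM in control. It rose 1.27-fold without overlap (log2 fold change 0.35, SE 0.07, adjusted p = 0.00219). Adamts10, which binds fibrillin microfibrils, rose 1.35-fold from 118 ± 18.2 to 160 ± 19.6 CPM (SD, n = 4; adjusted p = 0.0214), with overlap between KO 1 at 133 and control 4 at 138 CPM. The call was lost without KO 2, KO 4 or control 1 (0.0552 to 0.0613), without KO 2 and control 2 together (0.0836), against controls 3 and 4 alone (0.117) and when genes of low counts were kept (0.0512). The aggrecan- and versican-cutting genes were not called in the comparison of all 8 libraries: Adamts1 was at 86.3 to 104 and 97.1 to 110 CPM, Adamts4 at 1.5 to 2.95 and 2.55 to 4.05, Adamts5 at 42.6 to 49.0 and 35.5 to 48.6, and Adamts9 at 25.6 to 40.6 and 26.0 to 29.5 CPM in KO and control. Adamts4 had an edgeR adjusted p of 0.0573 and was called lower by DESeq2 (0.0283) and limma-voom with quality weights (0.00939), and in edgeR with no filter (0.0336), the replicate block (0.0238), a Y-linked covariate (0.0443), without KO 4 (0.0196) or without control 2 (0.0351). Adamts5 had an edgeR adjusted p of 0.0802. It was called higher by limma-voom with quality weights (0.0297) and in edgeR without TMM factors (0.0298), with no filter (0.047), the replicate block (0.0479) or a Y-linked covariate (0.0336), without control 2 (0.00329), without KO 2 and control 2 together (0.0112) or against controls 3 and 4 alone (0.0141).

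The inhibitor genes were the role in which every tested gene was called: 4 rose (80%, against 14.8% of all tested genes) and 1 fell (20%, against 13.1%). The median of these genes on the log2 scale was 0.58 and the mean 0.14. Timp1, the inducible TIMP, was at 24.1, 27.6, 20.2 and 21.7 CPM in KO and at 13.5, 7.16, 12.5 and 7.66 CPM in control. Controls 2 and 4 were lower than controls 1 and 3, all were below KO, and the rise was 2.29-fold (log2 fold change 1.20, SE 0.21, adjusted p = 0.00266). Timp3, the TIMP that binds to the matrix, was at 478, 431, 446 and 474 CPM in KO and at 283, 371, 265 and 305 CPM in control, a 1.49-fold rise (log2 fold change 0.58, SE 0.09, adjusted p = 0.000775). Timp2, which also takes part in the activation of MMP2, was at 399, 445, 429 and 486 CPM in KO and at 371, 373, 404 and 387 CPM in control. KO 1 lay below control 3, and the 1.15-fold rise stood at the threshold (adjusted p = 0.0499). It was not called without KO 2, KO 3, KO 4, control 1, control 2 or control 4 (0.0816 to 0.141), with RLE factors (0.0574), with the replicate number as a block (0.058), with a Y-linked covariate (0.0794), without KO 2 and control 2 together (0.165), or against controls 1 and 2 (0.122) or 3 and 4 alone (0.346).

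Timp4, a TIMP known for its expression in the heart, moved the other way. It was at 2.24, 0.62, 1.20 and 1.41 CPM in KO and at 6.40, 7.26, 4.08 and 6.67 CPM in control, so every KO library was below control 3, the lowest control. From 6.10 ± 1.39 to 1.37 ± 0.672 CPM (SD, n = 4) it fell 4.49-fold (log2 fold change -2.17, SE 0.33, adjusted p = 0.000729), and the log2 fold change was -2.51 to -1.92 when any 1 library was left out. Per length, Timp2 led the family in control at 98.5, followed by Timp3 at 37.6, Timp1 at 11.5 and Timp4 at 1.04, with no overlap of the libraries between neighbours. The order was the same in KO, at 113, 56.1, 26.4 and 0.232. Serpine2, which encodes protease nexin 1, an inhibitor of thrombin and plasminogen activators, was at 106, 100, 116 and 94.7 CPM in KO and at 53.5, 62.5, 59.5 and 52.6 CPM in control. The groups lay far apart and the rise was 1.83-fold (log2 fold change 0.87, SE 0.08, adjusted p = 9.72e-06).

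Timp1, Timp3 and Timp4 lie inside synapsin genes, on the opposite strand. On GRCm38, Timp1 (chromosome X, 20870166 to 20874735) lies within Syn1, Timp4 (chromosome 6, 115241892 to 115252205) within Syn2 and Timp3 (chromosome 10, 86300372 to 86349506) within Syn3. The synapsin genes, named for this position after values were seen, were not called: Syn1 was at 3.12 ± 0.732 and 2.64 ± 1.03 CPM (SD, n = 4; adjusted p = 0.583), Syn2 at 4.73 ± 1.59 and 6.85 ± 1.70 CPM (adjusted p = 0.166) and Syn3 at 0.925 ± 0.25 and 1.10 ± 0.0882 CPM (adjusted p = 0.492) in KO and control. Exons of Timp4 and Syn2 overlap over 90 bases and those of Timp3 and Syn3 over 1733 bases, where reads cannot be told apart without strand.

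Of the 4 small leucine-rich proteoglycan genes among the 47, whose products bind collagen fibrils, 2 rose (50%, against 14.8% of all tested genes). EdgeR called 0 lower (against 13.1% of all tested genes) and left 2 uncalled, and the median log2 fold change of the 4 was 0.31. Further leucine-rich proteoglycan genes, among them Podn, which fell, stand in the list of further matrix genes below. Dcn was at 1271, 1713, 1550 and 1653 CPM in KO and at 1258, 1255, 1184 and 1141 CPM in control. KO 1 was hardly above control 1, and the rise was 1.28-fold (log2 fold change 0.35, SE 0.09, adjusted p = 0.0109, not called against controls 1 and 2 alone at 0.131). Lum, the lumican gene, is a neighbour of Dcn on chromosome 10 and was at 294, 467, 423 and 431 CPM in KO and at 333, 308, 332 and 274 CPM in control (adjusted p = 0.0551). In Lum the other 3 KO libraries were above every control while KO 1 was not, and it was called without KO 1 (log2 fold change 0.50, adjusted p = 0.000528). Lum was also called higher by DESeq2 (0.0195) and limma-voom with quality weights (0.0111), and in edgeR without TMM factors (0.037), with a filter of 1 CPM in 4 libraries (0.048) or with a Y-linked covariate (0.0399). Bgn, the biglycan gene, rose 1.20-fold (670 to 811 CPM in KO, 567 to 702 in control, adjusted p = 0.0355), a call lost without KO 1, KO 2, KO 4, control 1, control 2 or control 4 (0.0555 to 0.115), with the replicate block (0.0548), with a Y-linked covariate (0.0581), without KO 2 and control 2 together (0.141), and against controls 1 and 2 (0.0924) or 3 and 4 alone (0.198). Ogn, the osteoglycin gene, was at 139 to 187 and 140 to 189 CPM (adjusted p = 0.973).

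Of 4 fibroblast markers, 1 rose (25%, against 14.8% of all tested genes). EdgeR called 0 lower (against 13.1% of all tested genes) and left 3 uncalled, and the median log2 fold change of the 4 was 0.03. Tcf21, a transcription factor of cardiac fibroblasts and their epicardial precursors, was at 75.4, 63.5, 53.1 and 55.0 CPM in KO and at 39.8, 42.4, 38.4 and 42.3 CPM in control. It rose 1.52-fold (log2 fold change 0.60, SE 0.10, adjusted p = 0.00109), and KO 1 was its highest library. Pdgfra, the receptor that defines resident fibroblasts, was at 124 to 166 CPM in KO and 130 to 146 CPM in control (adjusted p = 0.233; called higher without KO 1, adjusted p = 0.0272). Fap, a surface protease of activated fibroblasts, was at 2.42 to 4.82 and 3.19 to 4.36 CPM (adjusted p = 0.803). Gsn was at 3789, 3590, 3600 and 3798 CPM in KO and at 3894, 4306, 4011 and 4247 CPM in control. Its groups did not overlap, yet the 1.11-fold difference did not pass in edgeR (adjusted p = 0.0806), while DESeq2 (0.0129), limma-voom with quality weights (0.035) and edgeR without KO 1 (0.0492) called it lower.

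The KO libraries differed among themselves in these genes. KO 1 was the lowest KO library in 24 of 46 genes (52.2%, against 31.8% of all tested genes) and KO 4 the highest in 24 (52.2%, against 24.9%). The median difference of the 46 genes from the control mean was 0.10 on the log2 scale in KO 1, 0.36 in KO 2, 0.22 in KO 3 and 0.44 in KO 4, and -0.04 to 0.02 in the controls. Without KO 1, 25 genes were higher and 4 lower (2687 and 2614 of all genes). Fn1, Fbln5, Mfap4, Mmp2, Lum and Pdgfra were then gained as rises, Gsn was gained as a fall and Bgn was lost. Without KO 4, the library with fat cell markers, 17 were higher and 3 lower (2110 and 1877 of all genes). As many, 17, were higher without KO 2 (2140 of all genes) or without control 1 (2121 of all genes). The summed level of the 8 fibroblast markers outside the 47 genes was 5363 CPM in KO 1, 6123 in KO 2, 5927 in KO 3 and 7096 in KO 4, so KO 1 was lowest and KO 4 highest there as well. KO 1 also differed from KO 2 to KO 4 in its library name prefix, and the part of either in its values was not tested.

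**Figure D4:**
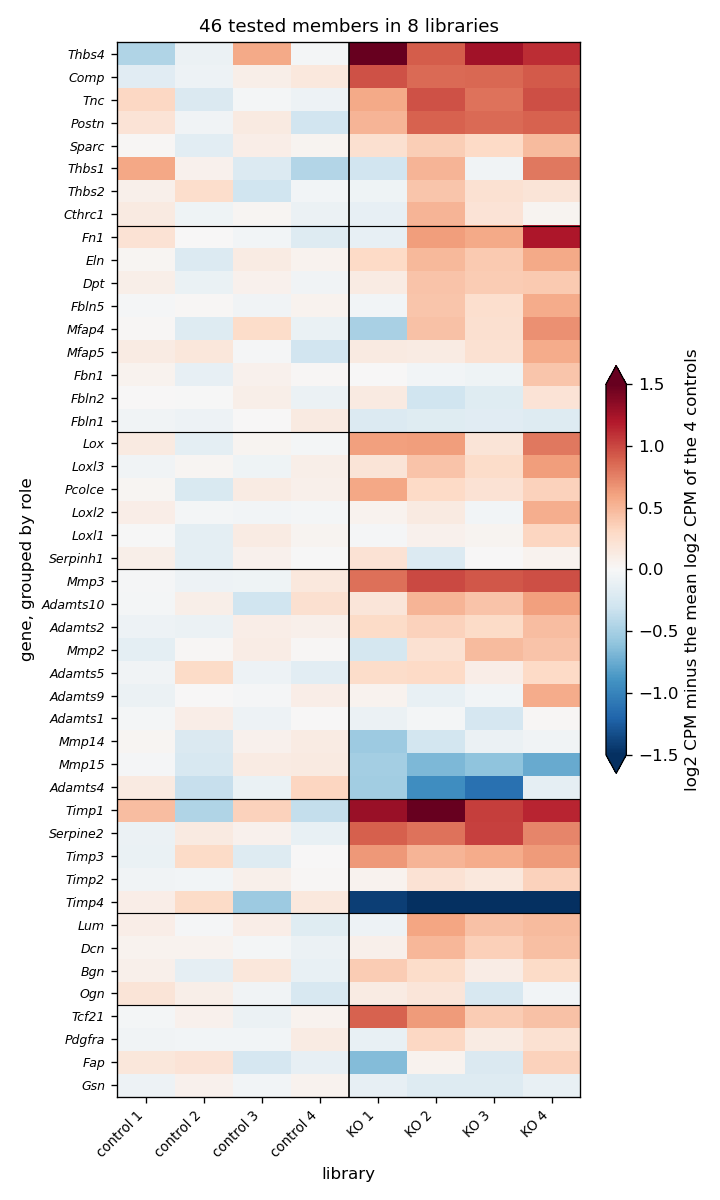
Log2 CPM of the 46 tested genes in each library minus the mean of the 4 controls, grouped by role, with red above and blue below that mean; the colour scale ends at 1.5 in both directions. KO 1 is blue in Fn1, Mfap4, Mmp2 and Lum where KO 2 to KO 4 are red, while Comp, Mmp3, Timp3 and Serpine2 are of similar shade in all KO libraries.

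Further matrix genes were listed beside the 47. Of 68 further matrix genes tested, 24 rose (35.3%, against 14.8% of all tested genes), 11 fell (16.2%, against 13.1%) and 33 were not called, with a median log2 fold change of 0.22. The 4 with the smallest p were Podn, a leucine-rich proteoglycan (2.51-fold lower, from 691 ± 88.6 to 275 ± 13.8 CPM), Adamtsl5, which lacks the protease domain (2.05-fold higher), Adamts7, a protease that cuts COMP (2.06-fold lower, from 34.8 ± 2.42 to 16.9 ± 1.40 CPM), and Ccn4, a matricellular target of Wnt signalling (2.75-fold lower), with edgeR adjusted p of 1.1e-06 to 3.56e-06. The largest rises in that list, named after their values were seen, were in Adamts8 (7.81-fold, from 47.8 ± 10.7 to 373 ± 84.8 CPM, SD, n = 4, adjusted p = 3.86e-05) and Fbn2, the fibrillin of the developing heart (4.76-fold, from 9.80 ± 1.90 to 46.6 ± 10.8 CPM, adjusted p = 4.33e-05). Both exceed every rise among the 46 genes.

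Of 27 collagen chains, 9 rose (33.3%, against 14.8% of all tested genes), 1 fell (3.7%, against 13.1%) and 17 were not called. The median log2 fold change of the 27 was 0.23. The basement membrane chains Col4a4 and Col4a3 rose 1.49-fold and 1.61-fold, Col18a1 1.68-fold and the fibrillar chain Col5a2 1.38-fold (adjusted p = 9.41e-06 to 0.0003). Of 19 genes of TGF-beta release and signalling, a pathway known to induce matrix genes in fibroblasts, 10 rose (52.6%), 2 fell (10.5%) and 7 were not called, with a median of 0.19. The ligand gene Tgfb2 went from 25.8 ± 2.32 in control to 58.3 ± 10.7 CPM in KO (SD, n = 4), a 2.25-fold rise (adjusted p = 6.93e-05). Ltbp2, of the latent complexes that hold the ligand, went from 3.75 ± 0.491 to 14.4 ± 3.89 CPM, a 3.83-fold rise (adjusted p = 1.62e-05). The receptor gene Tgfbr1 rose 1.41-fold, while the coreceptor gene Tgfbr3 fell 1.31-fold. Of 21 matrix receptors, 5 rose (23.8%), 1 fell (4.76%) and 15 were not called, with a median of 0.14. Cd44, the hyaluronan receptor, rose 1.79-fold, the syndecan gene Sdc4 1.58-fold and the integrin gene Itga4 1.63-fold, and Itga7, the laminin receptor of muscle, fell 1.55-fold (adjusted p = 1.61e-05 to 0.00251).

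**Figure D5:**
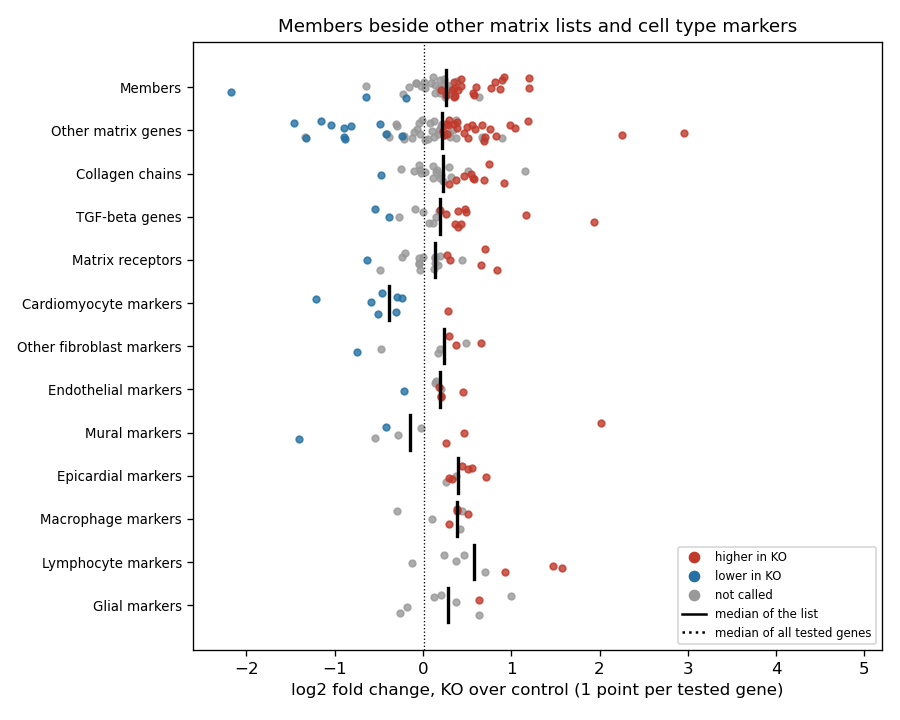
Log2 fold change of KO over control, 1 point per tested gene, for the 46 genes, 4 further lists of matrix genes and 8 lists of cell type markers; red and blue points are called higher and lower by edgeR, short bars mark each list's median and the dotted line the median of all tested genes (0.01). The medians of the matrix lists lie between 0.14 and 0.26. Those of the marker lists lie at -0.38 (cardiomyocyte), -0.15 (mural), 0.19 (endothelial), 0.24 (other fibroblast), 0.28 (glial), 0.39 (macrophage), 0.40 (epicardial) and 0.58 (lymphocyte).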

How the data were processed

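Polyadenylated RNA of mouse atria was sequenced in 8 libraries, 4 per group. The authors' deposited table gave whole-number read counts per gene and library, not normalised. STAR, DESeq2 and mm10 were named in the submitters' processing notes, with no role or version; the counting tool, its annotation and any strand setting are not given in the sources used here. Vector and number in a column name gave its sample.

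The 47 genes, the gene lists and the alternatives were chosen with earlier results of these data known. Counts were analysed with edgeR 4.0.16 in R 4.3.3: filterByExpr (minimum count 10, minimum total 15) kept 18033 genes, TMM factors scaled the libraries, and the robust quasi-likelihood test compared the groups over all 8 libraries with no covariate. P-values were adjusted by Benjamini-Hochberg over all tested genes, with calls made under 0.05. Per-gene SEs follow from the test's F. On the CPM scale, 3 counts equal 0.0744 to 0.0885 depending on the library. Exon lengths, coordinates and overlaps came from GENCODE M21 on GRCm38, the assembly of mm10.

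Values of every library were given for called genes whose groups did not overlap (up to 4 per role by p) and for the most abundant gene of each role. Fn1 and Lum fell outside this rule, and their values were also given by library. From each further list, up to 4 called genes were named by p. DESeq2 1.42.0 and limma-voom with quality weights (limma 3.58.1), which give less weight to libraries that deviate, were alternatives. Between libraries of 1 group, chi-square per degree of freedom was 12.4 to 31.8, so no library was a copy of another. Whether each library is a separate mouse is not stated in the labels: p-values then reflect only how far these samples spread, and that spread may be technical.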

Additional observations from a re-analysis of the deposited data

Results flagged for a closer look

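In 5 of 96 groups of 4 libraries (the 47 genes and Chd4, in KO and in control), 1 library stood apart from the other 3 by more than Dixon's 95% limit; chance alone flags about 1 group in 20. Postn was at 286 CPM in KO 1, below 362 to 371 CPM in the other KO libraries. Fbn1 was at 481 CPM in KO 4, above 345 to 361 CPM. Adamts5 was at 42.6 CPM in KO 3, below 48.2 to 49.0 CPM. In control, Loxl2 was at 54.6 CPM in control 1, above 49.7 to 50.2 CPM, and Pdgfra at 146 CPM in control 4, above 130 to 131 CPM.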

How the results depend on the processing

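The count of rises among the 46 genes was 17 to 25 when 1 library was left out and 14 to 23 under the other alternatives, and the count of falls 2 to 4 and 2 to 5, with 5 falls by DESeq2 and 5 by limma-voom with quality weights. No called result changed direction under any of the alternatives run. Over all genes, rises numbered 2032 to 2687 and falls 1877 to 2614 when 1 library was left out, and against controls 3 and 4 alone 1700 genes were higher; the cause was not tested, though fewer samples entered. With the replicate number as a block, 20 of the 46 genes were higher and 3 lower (2474 and 2283 of all genes); same-numbered libraries correlated at -0.0153, 0.303, -0.0563 and 0.105 in their deviations from the group means, and the labels do not say that a number pairs libraries. Without KO 2 and control 2 together, an alternative chosen after seeing the data, 17 genes were higher and 2 lower. Low counts kept Spp1 out of the main comparison, and the alternatives that kept it did not call it.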

Other observations

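Markers of further cell types were followed in the same fit, in which 14.8% of all tested genes were called higher and 13.1% lower. Of 7 tested fat cell markers, 0 rose and 1 fell, Lpl, a lipase gene that heart muscle also expresses (1.37-fold, edgeR adjusted p = 0.00174), and 6 were not called. Their median log2 fold change was 2.84, with 5 of 7 above 0. The summed level of the 8 listed was 1279 to 1560 CPM in KO and 1680 to 2028 CPM in control. Adipoq, Plin1, Cidec, Lep and Cfd each reached at most 39.3 CPM (Cfd in KO 4), so most of the sum came from the remaining markers Lpl, Fabp4 and Pparg. The fat cell genes Plin1 and Cidec were at 17.1 and 16.5 CPM in KO 4, against 0.0817 to 1.18 and 0.0248 to 0.737 CPM in the other 7 libraries. Of 5 tested markers of cartilage and tendon, 1 rose (Sox9, 1.44-fold, adjusted p = 0.0205) and 1 fell (Cnmd, the chondromodulin gene, 5.89-fold from 2.12 ± 0.691 to 0.364 ± 0.256 CPM, SD, n = 4, adjusted p = 0.00105). Summed over the 8 listed, markers of cartilage and tendon were at 12.9 to 22.2 CPM in KO and 14.4 to 15.7 CPM in control. Col2a1, the cartilage collagen, was at 0.0504 to 0.323 CPM in all 8 libraries. Of 6 erythroid markers 1 fell, Hba-a2 (1.52-fold, adjusted p = 0.0309), whose reads are uncertain because Hba-a1 is a near-identical copy.

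The spread between libraries on the log2 scale was larger in KO than in control in 28 of the 46 matrix genes (60.9%, against 50% of all tested genes and 54.1% of the 4602 tested genes of like level (between the quartiles of these genes)) and in 23 of 27 collagen chains (85.2%). The median SD of the 46 genes was 0.19 in KO and 0.13 in control, and that of the collagen chains 0.22 and 0.11.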
